A study of Mus musculus with 4 samples.

Results

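The genes described here are those of the neurotensin and bombesin-like peptide systems, that is, the peptide precursors *Nts*, *Grp* and *Nmb* and the receptors *Ntsr1*, *Ntsr2*, *Grpr* and *Nmbr*. These 7 genes were chosen by name among the 32285 genes counted, and were followed in all 134 neuronal clusters and in the other cell types of the posterior hindbrain. The data were UMI counts (unique molecular identifiers, each standing for 1 captured transcript) from single nuclei of a piece of mouse hindbrain that holds the area postrema and the nucleus of the solitary tract. The 4 libraries comprised 2 of control animals and 2 of AgRP-Gq;POMC-Gi animals, all C57BL/6, of both sexes and 12 to 20 weeks old. AgRP-Gq;POMC-Gi mice carry AgRP-IRES-Cre with a Cre-dependent hM3DGq allele and POMC-Dre with a Dre-dependent hM4DGi allele, so that clozapine *N*-oxide (CNO) excites AgRP neurons and inhibits POMC neurons. Controls, labelled as wild type, carry both receptor alleles but neither recombinase. Every mouse was injected with CNO (3 mg/kg) and kept without food for 1 h until the tissue was collected. AgRP neurons lie in the arcuate nucleus of the hypothalamus, outside the tissue profiled here. POMC neurons lie mainly there but are also known in the nucleus of the solitary tract, and whether profiled nuclei carried a receptor was not tested. The authors state that the samples of a group were pooled (2 mice per group), and how mice map to libraries is not given in the sources used here. A p-value therefore measures only the spread between these libraries, part of which may be technical.

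Neurotensin is a small secreted peptide made in neurons of the brain stem, hypothalamus and midbrain and in endocrine cells of the gut, and it is known for lowering food intake, blood pressure and body temperature when given into the brain. It acts through *Ntsr1*, a high-affinity receptor of neurons that couples to the Gq family of G proteins, and *Ntsr2*, a low-affinity receptor best known from astrocytes. Gastrin-releasing peptide (*Grp*) and neuromedin B (*Nmb*) are the mammalian relatives of the frog peptide bombesin. Each prefers its own Gq-coupled receptor, *Grpr* or *Nmbr*, and both peptides are known for satiety, itch in the dorsal horn and sigh control in the medulla.

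The authors kept 39461 nuclei, between 9723 and 10051 per library, of which 12539 were neurons. Neurons held a median of 8704 UMIs and oligodendrocytes one of 2460 UMIs, and each library held between 26860073 and 35583732 UMIs in neurons. Levels are given as CPM, the usual depth-scaled count of a gene, taken over all UMIs of the same nuclei in the same library, and are compared between cells and not between genes. The neuronal genes *Rbfox3*, *Snap25* and *Syt1* were at 256 ± 12.2, 715 ± 12.1 and 1348 ± 38.3 CPM in neurons (SD over 4 libraries) against 8.40 ± 1.14, 93.1 ± 17.5 and 26.5 ± 4.81 CPM in oligodendrocytes. Libraries of the same group also differed. *Xist* was at 507, 319 and 541 CPM in neurons of both control libraries and of AgRP-Gq;POMC-Gi replicate 1, and at 16.2 CPM in AgRP-Gq;POMC-Gi replicate 2. As *Xist* is transcribed in female cells, the AgRP-Gq;POMC-Gi libraries did not hold the same mix of sexes, and their spread is not technical alone. This is at odds with both libraries being drawn from a single pool of mice. Choroid plexus nuclei numbered 436 and 329 in replicate 2 of the control and AgRP-Gq;POMC-Gi groups and 2 and 6 in replicate 1. Their transcript *Ttr* followed, with 1.49 and 1003 CPM in neurons of control replicates 1 and 2 and 7.53 and 580 CPM in those of AgRP-Gq;POMC-Gi replicates 1 and 2. The share of neurons among nuclei differed with the group, at 25.4% and 27.2% (control) against 38.0% and 36.5% (AgRP-Gq;POMC-Gi). Between 19 and 36 cell barcodes were shared by any pair of libraries.

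The members were sparse. *Nts* had 716 UMIs in 439 neurons, *Grp* 279 in 193 and *Nmb* 331 in 315, while *Ntsr1* had 357 UMIs in 311 neurons, *Ntsr2* 671 in 582, *Grpr* 162 in 126 and *Nmbr* 277 in 238. These are between 1.00% and 4.64% of neurons, and between 68.3% (*Nts*) and 94.9% (*Nmb*) of the neurons with a UMI held a single one. Free RNA in droplets gives UMIs in nuclei that do not express a gene, so each level was read against oligodendrocytes, which are not known to use these genes. *Ntsr1* and *Grpr* were almost absent there, with 12 and 2 UMIs in 16816 nuclei. By library, *Ntsr1* was between 6.80 and 43.8 times as high in neurons as in oligodendrocytes. *Grpr* was 15.8 and 16.8 times as high in 2 libraries and had no oligodendrocyte UMI in the other 2. For *Nts*, *Grp*, *Nmb* and *Nmbr* the ratio of mean CPM was 1.59, 2.06, 1.56 and 1.15, and for *Ntsr2* it was 0.497. With every nucleus thinned to 800 UMIs, 0.552% of neurons and 0.311% of oligodendrocytes kept an *Nts* UMI, and 0.251% and 0.0177% an *Ntsr1* UMI. In CPM, a low level of the 3 peptide precursors or of *Nmbr* in a neuronal cluster is therefore not set apart from this background. Without thinning, 3.50% of neurons and 0.916% of oligodendrocytes held an *Nts* UMI, and 1.90% and 0.482% an *Nmbr* UMI, at unlike depths. *Aqp4*, an astrocyte gene, was at 3.79 CPM in neurons and 10.0 CPM in oligodendrocytes, so background in CPM may differ between them. The receptors *Ntsr1* and *Grpr* had little background in oligodendrocytes and astrocytes, with 3 UMIs each in 4378 astrocytes. *Ntsr1* also had 2 UMIs in 1 tanycyte-like nucleus.

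**Figure D1:**
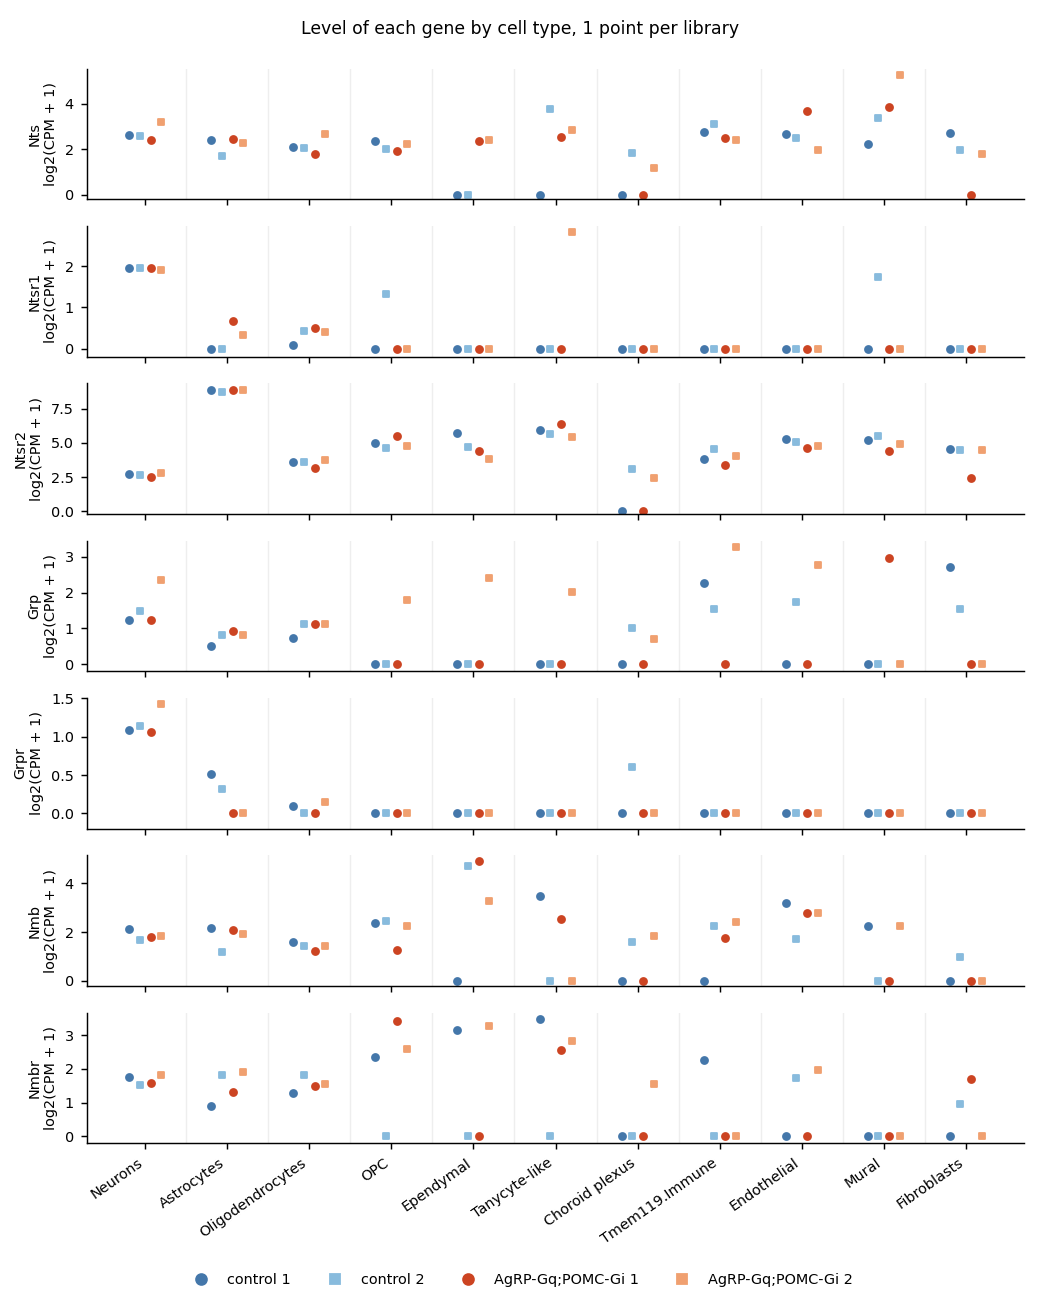
CPM of each gene, as log2(CPM + 1), in 11 cell types of the authors' annotation, with 1 point per library (blue, control; red and orange, AgRP-Gq;POMC-Gi; circles, replicate 1; squares, replicate 2). Ntsr2 stands at 431 to 480 CPM in astrocytes, and Ntsr1 and Grpr are near 0 in most libraries outside neurons.

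*Nts* (ENSMUSG00000019890, GRCm38 chromosome 10, 102481756 to 102490486, minus strand) encodes the shared precursor of neurotensin and neuromedin N. Its promoter is shown because the gene is known as a target of AP-1 factors, the products of activity-induced genes such as *Fos*. The 182 bases before the start annotated in GENCODE M21 (sequence from the RefSeq table, GRCm38.p6, chr10:102490487-102490668, minus strand) are printed 5′ to 3′, with the match to an AP-1 site in capitals.
Nts promoter: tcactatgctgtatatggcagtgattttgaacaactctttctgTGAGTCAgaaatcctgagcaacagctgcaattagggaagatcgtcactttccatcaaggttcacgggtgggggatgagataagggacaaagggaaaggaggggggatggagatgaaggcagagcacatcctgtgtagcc
The letters searched for AP-1 were TGACTCA and its reverse complement, and the match begins 139 bases before the start of the gene. Of 32851 promoters in the RefSeq table, 3.14% held these letters in the first 182 bases of the entry. Entries run from 250 bases before the RefSeq start to 50 after it, so the bases nearest that start were not searched. The full CRE (TGACGTCA) did not occur in this window and occurs in the first 182 bases of 0.609% of entries. Its core (TGACG or the reverse complement) occurs once here and in those bases of 10.9% of entries.

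*Nts* was unevenly spread over neurons. The 5 clusters with the highest mean level held 45.8% of the UMIs in 4.60% of the neurons, and 79.3% of the UMIs lay in glutamatergic clusters, which hold 49.5% of neurons (a cluster is called glutamatergic where *Slc17a6* is at least 4-fold above *Slc32a1*). The highest was cluster 63, named by the authors for *Ebf2* and *Th*. It held 48, 10, 12 and 103 *Nts* UMIs in control replicates 1 and 2 and AgRP-Gq;POMC-Gi replicates 1 and 2, which is 188, 75.0, 128 and 217 CPM. An *Nts* UMI was found in 20 of 34, 5 of 17, 7 of 17 and 33 of 71 nuclei of these libraries, in all 46.8% (95% Clopper-Pearson interval 38.3 to 55.4%, counting error only). The low and high libraries of both groups overlap, with the lowest value in a control library and the highest in an AgRP-Gq;POMC-Gi library. Cluster 146 (*Rxfp1*/*Ebf2*) followed at 71.1, 122, 84.8 and 114 CPM, and cluster 160 (*Ebf2*/*Ism1*) at 71.7, 48.0, 56.9 and 60.3 CPM. The order of these 3 clusters does not hold in every library: control replicate 2 was higher in cluster 146 than in cluster 63, and control replicate 1 was about as high in cluster 160 as in cluster 146. All values of cluster 160 lie above those of the next cluster, 43 (*Tafa2*/*Pde1a*), at 29.7, 31.6, 18.9 and 23.7 CPM. Cluster 42 (*Mylk*/*Mctp2*) was at 24.0, 22.0, 17.2 and 34.6 CPM.

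The 3 leading *Nts* clusters share *Ebf2*, a transcription factor of developing hindbrain neurons, at 965 ± 154, 1289 ± 212 and 671 ± 135 CPM, and rank among the 7 highest of all neuronal clusters for it. They also share *Slc17a6*, the vesicular glutamate transporter, at 141 ± 32.4, 100 ± 42.3 and 146 ± 43.2 CPM, and *Lmx1b*, a factor of dorsal excitatory neurons, at 89.7 ± 14.6, 83.1 ± 9.91 and 100 ± 25.4 CPM. *Th*, which encodes the first enzyme of catecholamine synthesis, was at 107 ± 30.3 CPM in cluster 63 and 67.0 ± 30.0 CPM in cluster 146. No nucleus of either cluster had a UMI of *Dbh*, which makes noradrenaline from dopamine. Within cluster 63 *Th* was found in 30 of the 65 nuclei with *Nts* and in 35 of the 74 nuclei without it (46.2% and 47.3%), at median depths of 6353 and 6283 UMIs. Across all 134 neuronal clusters *Th* was the gene most like *Nts* in its level (Pearson r = 0.59 over log2(CPM + 10), a description over clusters that share libraries), followed by *Ccdc184* at 0.54 and *Col13a1* at 0.53. At least 3 *Nts* UMIs were held by 59 neurons, 23 of them in cluster 63, and by none of the 16816 oligodendrocytes or of any other cell type.

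Outside neurons *Nts* was low and uneven. Oligodendrocytes had 3.32, 3.18, 2.42 and 5.28 CPM and astrocytes 4.33, 2.26, 4.48 and 3.80 CPM. Mural cells, the pericytes and smooth muscle cells of vessels, had the highest mean of any type at 16.0 ± 14.8 CPM, from 2, 4, 2 and 10 UMIs in 806 nuclei. AgRP-Gq;POMC-Gi replicate 2 supplied most of them. Without it, without AgRP-Gq;POMC-Gi replicate 1 or without control replicate 2, the highest mean was that of an immune type with only 1 or 2 UMIs in all.

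*Ntsr1* (ENSMUSG00000027568, chromosome 2, 180499976 to 180544980, plus strand) was less concentrated in its highest clusters than its ligand. It had UMIs in 79 of 134 clusters, where *Nts* had them in 94. The 5 highest clusters held 25.5% of the *Ntsr1* UMIs in 4.35% of neurons, and 60.2% of all *Ntsr1* UMIs lay in GABAergic clusters, which hold 39.3% of neurons. The highest was the glutamatergic cluster 70 (*Tfap2b*/*Cntnap5b*), with 4, 4, 11 and 7 UMIs and 43.2, 20.0, 26.3 and 23.4 CPM. The GABAergic clusters 102 (*Necab1*/*Pde1a*) and 58 (*Adarb2*/*Lama1*) followed at 19.2 ± 6.14 and 17.9 ± 4.09 CPM (SD, n = 4), as did the GABAergic cluster 83 (*Agtr1b*/*Cntnap5b*) at 6.58, 11.7, 10.5 and 41.2 CPM and cluster 142 (*Cpne4*/*Trhde*, transmitter not called) at 33.3, 16.9, 11.1 and 10.5 CPM. These clusters overlap in their ranges, and their order is not set by the data. Clusters 102, 58 and 83 also held *Slc6a5*, the glycine transporter, at 170 ± 54.2, 114 ± 28.4 and 146 ± 10.9 CPM. The genes most like *Ntsr1* over clusters were *Gm32341* (r = 0.51), *Pcsk4* (0.48) and *Zeb2os* (0.47).

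**Figure D2:**
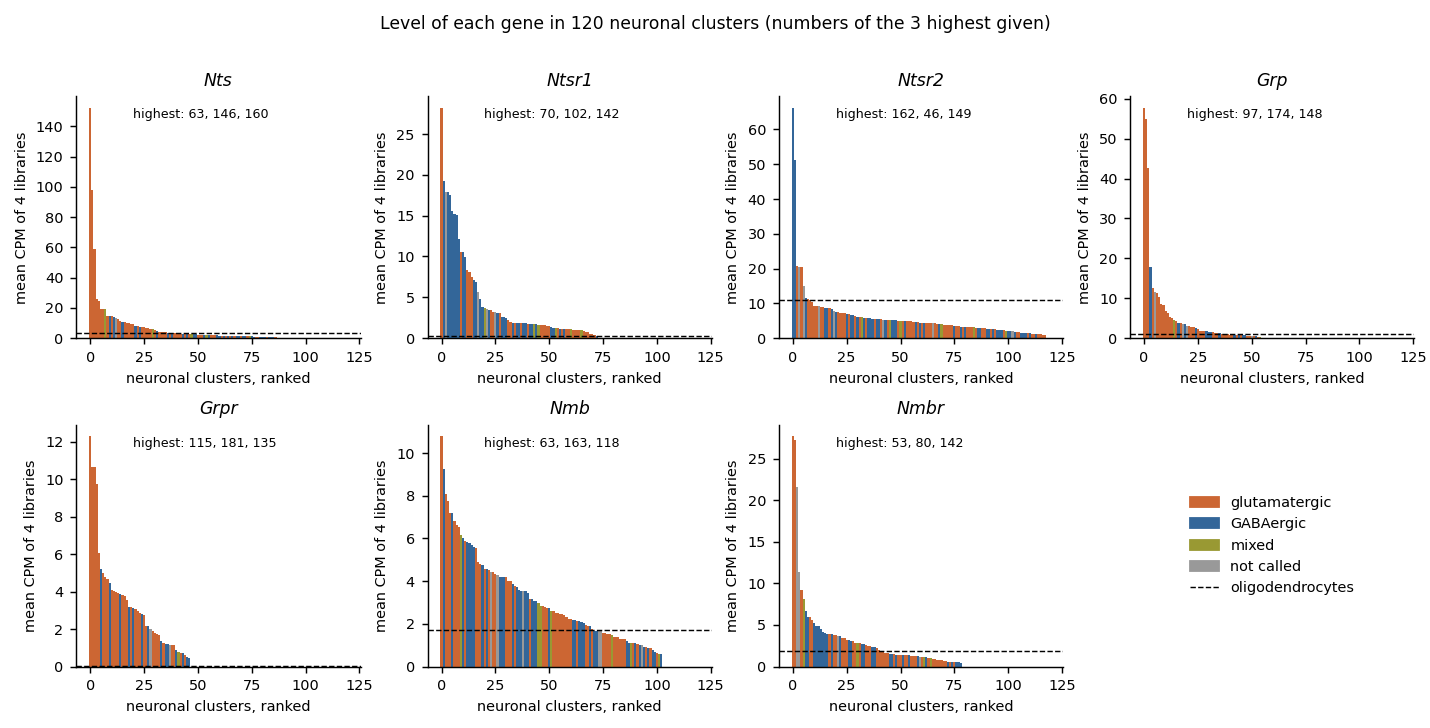
Mean CPM over 4 libraries of each gene in 120 neuronal clusters (those where no library had fewer than 5 nuclei), ranked from high to low and coloured by transmitter class. The dashed line is the mean in oligodendrocytes; Nts, Ntsr2 and Grp fall steeply after 2 or 3 clusters, and Nmb declines gradually from 10.8 CPM.

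*Ntsr2* (ENSMUSG00000020591, chromosome 12, 16653382 to 16660227, plus strand) was the gene of astrocytes. It stood at 467, 431, 465 and 480 CPM there, with a UMI in 3323 of 4378 astrocytes (75.9%), against 5.58, 5.43, 4.61 and 5.90 CPM in neurons. All 11 astrocyte clusters held it, between 318 and 541 CPM. Tanycyte-like cells, which line the ventricle, followed at 59.2 ± 17.3 CPM, mural cells at 32.5 ± 10.1, oligodendrocyte precursor cells at 31.3 ± 9.04 and endothelium at 30.1 ± 6.64 CPM, and these last 3 do not differ beyond their spread. *Ntsr2* was also set beside *Aqp4*, the water channel of astrocytes. There were 119 *Ntsr2* UMIs per 100 *Aqp4* UMIs in astrocytes, 109 in oligodendrocytes and 118 in neurons outside clusters 46 and 162. In those neurons the 4 libraries gave 123, 123, 126 and 104. They gave 132, 134, 104 and 109 in astrocytes, and 113, 107, 85.7 and 127 in oligodendrocytes. The ratio to *Slc1a2*, a glutamate transporter of astrocytes, was less alike, at 14.7 per 100 *Slc1a2* UMIs in astrocytes, 28.6 in oligodendrocytes and 9.15 in these neurons. The same cells held 7323, 499 and 545 UMIs of *Ntsr2*. They held 8442, 4837 and 457 UMIs of the astrocyte gene *Slc1a3*, and 5768, 640 and 553 of *Gja1*. The match seen with *Aqp4* was thus not shared by each astrocyte gene. The level over all neurons was below that of oligodendrocytes in every library and is not set apart from the background.

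Clusters 162 (*Chrdl1*/*Kcnh8*) and 46 (*Col18a1*/*Gpc3*) stood apart from the other neurons. Cluster 162 had 4, 5, 8 and 13 *Ntsr2* UMIs, or 63.5, 69.7, 58.3 and 73.3 CPM, in 19 of 48 nuclei. Cluster 46 had 13, 14, 21 and 48 UMIs, or 28.8, 72.1, 47.9 and 56.4 CPM, in 59 of 161 nuclei. *Aqp4* came to 2 UMIs in cluster 162 and 10 in cluster 46, so that the ratio was 1500 and 960 *Ntsr2* UMIs per 100 *Aqp4* UMIs, and 143 and 181 per 100 *Slc1a2* UMIs. *Gja1*, another astrocyte gene, had 1 and 6 UMIs. In cluster 162 *Aqp4* was found in 2 of the 19 nuclei with *Ntsr2* and 0 of the 29 without, and *Slc1a2* in 9 of the 19 and 6 of the 29, at median depths of 10717 and 7405 UMIs. In cluster 46 *Aqp4* was found in 2 of the 59 nuclei with *Ntsr2* and 8 of the 102 without, and *Slc1a2* in 14 of the 59 and 28 of the 102, at median depths of 12537 and 10553 UMIs. All 8 values of these clusters are above the oligodendrocyte range of 8.22 to 12.5 CPM. Both clusters are inhibitory, with *Slc32a1*, the vesicular transporter of GABA and glycine, at 71.8 ± 19.1 and 70.9 ± 28.9 CPM and *Slc6a5* at 150 ± 29.1 and 212 ± 38.2 CPM. Among clusters with 5 nuclei or more in each library, the next, 149, 176 and 80, had 4, 5 and 16 UMIs, with 9 of the 16 in control replicate 1, and overlapped with the background. Cluster 185 (*Hmcn2*/*Abcb5*), with 15 nuclei too small for this order, had 6 UMIs in 5 nuclei, or 36.3 CPM with libraries added up. Over clusters *Ntsr2* was most like *Ptk2b* (r = 0.48), *Gm48597* (0.43) and *Prrt1* (0.40).

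**Figure D3:**
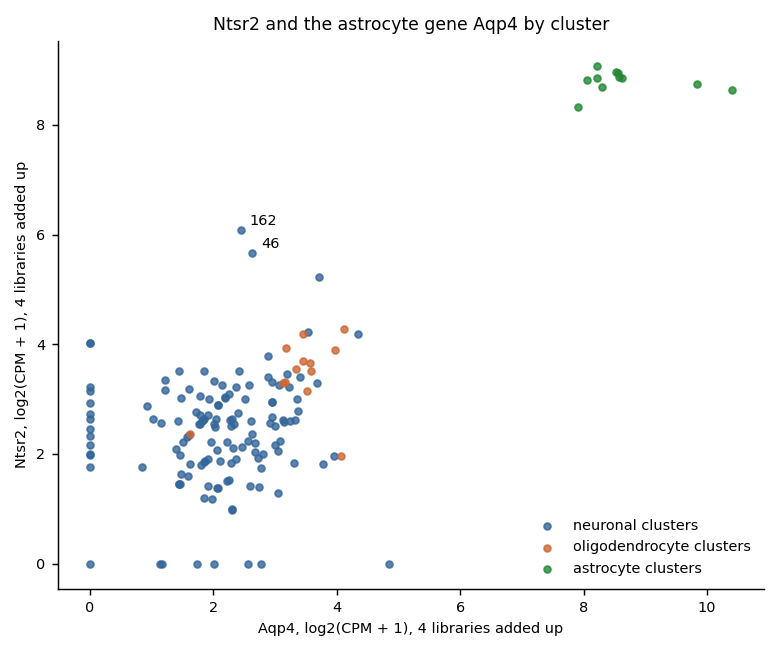
Ntsr2 against the astrocyte gene Aqp4 in each cluster, both as log2(CPM + 1) of the 4 libraries added up. Astrocyte clusters lie at the upper right, most neuronal clusters near the oligodendrocyte clusters or below, and the inhibitory neuronal clusters 46 and 162 lie above the others at low Aqp4.

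*Grp* (ENSMUSG00000024517, chromosome 18, 65872820 to 65886596, plus strand) was highest in 3 glutamatergic clusters, and had UMIs in 59 of 134 clusters in all. The 5 highest clusters held 41.6% of its UMIs in 2.86% of neurons. Cluster 97, named for *Gfral*, the receptor of the sickness hormone GDF15 in the area postrema, and *Sctr*, held 2, 9, 12 and 28 *Grp* UMIs, or 29.5, 65.8, 36.6 and 98.9 CPM. These UMIs came from only 13 of 101 nuclei, with up to 9 in a nucleus. Cluster 174 (*Prdm6*/*Grp*) held 1, 6, 2 and 26 UMIs, or 13.8, 42.2, 20.1 and 144 CPM, in 13 of 39 nuclei. Cluster 148 (*Ccdc172*/*Ebf2*) held 5, 1, 1 and 4 UMIs, or 93.9, 29.3, 13.4 and 34.2 CPM. In clusters 97 and 174 AgRP-Gq;POMC-Gi replicate 2 was the highest library, and in cluster 148 control replicate 1 was. Clusters 162 and 80 followed at 17.9 ± 9.36 and 12.5 ± 9.17 CPM, and 83.5% of all *Grp* UMIs lay in glutamatergic clusters. The range of each cluster overlaps that of the next, and their order is not set by the data. Under the alternatives cluster 174 was highest, or cluster 148 without AgRP-Gq;POMC-Gi replicate 2.

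Within cluster 97, *Gfral* was found in 2 of the 13 nuclei with *Grp* and in 32 of the 88 without it. *Th* was found in 6 of the 13 and 16 of the 88, and *Dbh* in 5 of the 13 and 17 of the 88, at median depths of 6770 and 7005 UMIs. With 13 nuclei these are counts from few cells and were not tested. *Calcr*, the calcitonin receptor, had a UMI in 0 of the 13, and in 1 of the 88. The gene most like *Grp* over clusters was *Gm30094* (r = 0.88), followed by *Gm27151* (0.44) and *Npffr2* (0.43). Its gene identifier, ENSMUSG00000118170, is that of AC152076.4 in GENCODE M21, an antisense gene that runs across the whole of *Grp* on the opposite strand (65863333 to 65894755), and 62 of the 193 neurons with *Grp* also held it. The sources used here do not state whether counting used the strand, so the counts of *Grp* and *Gm30094* are given as uncertain. *Gm30094* also had most of its UMIs in AgRP-Gq;POMC-Gi replicate 2, with 0, 5, 23 and 32 in cluster 97 and 1, 9, 3 and 39 in cluster 174. In cluster 97 the 23 UMIs of AgRP-Gq;POMC-Gi replicate 1 came from 2 of 40 nuclei.

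*Grpr* (ENSMUSG00000031364, chromosome X, 163513904 to 163549677, minus strand), the receptor of gastrin-releasing peptide, was the rarest member in neurons but had almost no background. Its UMIs were scattered over 49 of 134 clusters. Among clusters with 5 nuclei or more in each library, the 5 highest held 14.8% of all its UMIs. In cluster 115 (*Sema3a*/*Cdh9*) 5 UMIs came from 1 nucleus of control replicate 1. Cluster 156 (*Ankfn1*/*Pou4f1*) had 0, 0, 2 and 4 UMIs and cluster 181 (*Sntb1*/*Cpne4*) 0, 0, 2 and 2. Cluster 135 (*Zfp804b*/*Etl4*) had 2 UMIs, both from AgRP-Gq;POMC-Gi replicate 1. Cluster 170 (*Myo5b*/*Otof*), which has fewer than 5 nuclei in a library, held 10 UMIs in 8 of 42 nuclei, or 30.2 CPM with libraries added up. *Grpr* lay to 75.3% in glutamatergic clusters, and its likest genes were *Ap1s2* (r = 0.41), *Vwce* (0.38) and *Agtr1a* (0.38).

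*Nmb* (ENSMUSG00000025723, chromosome 7, 80902227 to 80905076, minus strand) was the most even of the members. It had UMIs in 113 of 134 clusters, no neuron held more than 2 UMIs, and the 5 highest clusters held 6.95% of its UMIs in 3.36% of neurons. The highest, cluster 63, had 2, 3, 1 and 1 UMIs. Clusters 163, 118, 99 and 153 followed at between 7.18 and 9.24 CPM, from 2 to 6 UMIs each, and overlap in their ranges. The gene overlaps *Sec11a* on the same strand, so that its counts are uncertain. Of the 315 neurons with *Nmb*, 131 also held *Sec11a*, yet the levels of both genes were not alike over clusters (r = 0.04). Outside neurons, ependymal cells had 0, 24.9, 28.8 and 8.69 CPM, from 14 UMIs in 314 nuclei. The likest genes over clusters were *2810405F17Rik* (r = 0.41), *Lnx2* (0.38) and *Dis3l* (0.37).

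*Nmbr* (ENSMUSG00000019865, chromosome 10, 14705591 to 14770850, plus strand), the receptor of neuromedin B, was highest in 2 glutamatergic peptide clusters. Cluster 53, named for *Gal* and *Dkk2*, held 5, 7, 10 and 10 UMIs, or 26.5, 41.8, 25.7 and 16.9 CPM, in 23 of 151 nuclei. Cluster 80, named for *Pdyn* and *Cpa6*, held 4, 6, 4 and 10 UMIs, or 22.7, 42.4, 15.6 and 28.3 CPM, in 18 of 115 nuclei. Both are above the oligodendrocyte range of 1.46 to 2.51 CPM in all 4 libraries and do not differ from each other beyond their spread. Cluster 53 was the highest of all neuronal clusters for *Gal*, the precursor of galanin, and cluster 80 for *Pdyn*, the precursor of dynorphin. In cluster 80 *Pdyn* was found in 11 of the 18 nuclei with *Nmbr* and in 37 of the 97 without, at median depths of 11247 and 7228 UMIs. In cluster 53 *Gal* was found in 13 of the 23 nuclei with *Nmbr* and in 85 of the 128 without, at median depths of 9056 and 7704 UMIs. *Pdyn* was also the gene most like *Nmbr* over clusters (r = 0.45), followed by *Frmd7* (0.38) and *Lama5* (0.36). Clusters 142, 167 and 147 followed, with 10, 1 and 4 UMIs. Some cell types outside neurons had a higher mean than the 2.21 ± 0.33 CPM of all neurons. Tanycyte-like cells had 5.31 ± 4.22 CPM (4 UMIs) and oligodendrocyte precursor cells 4.69 ± 3.95 CPM (15 UMIs). Ependymal cells had 4.12 ± 4.78 CPM (4 UMIs). Genes on the other strand lie within *Nmbr*, among them *Gje1* and *B230364G03Rik*.

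*Nts* and *Ntsr1* shared 6 neurons of 439 and 311, *Grp* and *Grpr* 4 of 193 and 126, and *Nmb* and *Nmbr* 11 of 315 and 238. Over clusters r was -0.07, 0.08 and -0.07 for these pairs. With so few UMIs per nucleus, a shared neuron was seldom detectable, and whether these counts depart from those of unrelated genes was not tested. To compare clusters at equal depth, nuclei were thinned to 2000 UMIs and a cluster was said to hold a gene where at least 10% of its nuclei kept a UMI. This left 5 pairs, namely *Nts* in clusters 63, 146 and 160 (26.5%, 16.4% and 11.5%), *Ntsr2* in cluster 162 (10.8%) and *Grp* in cluster 174 (10.5%). *Ntsr2* in cluster 46 was just below, at 9.76%. Of the 35 *Grp* UMIs in cluster 174, 26 came from AgRP-Gq;POMC-Gi replicate 2.

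The groups were compared to learn whether the peptide systems of the hindbrain differ 1 h after opposite control of AgRP and POMC neurons. No difference of a member passed the test in all neurons. *Nts* was at 5.25 and 4.99 CPM in control neurons against 4.27 and 8.11 CPM in those of AgRP-Gq;POMC-Gi mice, and *Grp* at 1.34 and 1.79 against 1.35 and 4.14 CPM. AgRP-Gq;POMC-Gi replicate 2 was the highest library for *Nts*, *Grp*, *Grpr*, *Ntsr2* and *Nmbr*. *Xist* was at 16.2 CPM there, against 319 to 541 CPM elsewhere, so the mix of sexes cannot be told apart from this library. Without it the other AgRP-Gq;POMC-Gi library lay below the control mean in CPM for each of the 7 members, but with TMM factors the fitted difference was then above 0 for *Ntsr1* (0.09), *Grpr* (0.03) and *Nmbr* (0.01). In the ratio of group means *Ntsr1* differed least, at 2.90 and 2.92 CPM against 2.87 and 2.75 CPM. It was the only member whose groups did not overlap, as was the case for 34.6% of all genes with a UMI, and its fitted difference with TMM factors had the opposite sign. With equal weight per cluster the groups overlapped for *Ntsr1* and did not for *Ntsr2* (AgRP-Gq;POMC-Gi lower) and *Grpr* (higher), and the share of all genes was not computed for that weighting. No member reached the detection minimum (a UMI in 5% of neurons), so none was tested under it, and 0% of the 12115 genes above it passed, 667 of them at an unadjusted p under 0.05. Tested without the minimum by edgeR's quasi-likelihood test, 0 of 7 members passed (adjusted p from 0.867 to 0.992), where 0.00363% of all genes did, and 0 of 7 had an unadjusted p under 0.05, where 4.59% of all genes did. DESeq2 passed 0 of 7. The log2 differences were 0.33 ± 0.26 for *Nts*, 0.86 ± 0.46 for *Grp*, -0.08 ± 0.24 for *Nmb*, 0.02 ± 0.18 for *Ntsr1*, -0.01 ± 0.16 for *Ntsr2*, 0.33 ± 0.28 for *Grpr* and 0.15 ± 0.23 for *Nmbr* (± SE).

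Beside the *Nts* values, 2 other measures moved with the library. Cluster 63 made up 1.38%, 0.621%, 0.460% and 1.95% of neurons, and the *Nts* level of oligodendrocytes was again highest in AgRP-Gq;POMC-Gi replicate 2. Neurons outside cluster 63 had 3.50, 4.65, 3.94 and 5.26 CPM. Fewer cells of a type and less RNA per cell were separated here only as far as clusters allow, and the part of these measures in the difference was not tested.

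**Figure D4:**
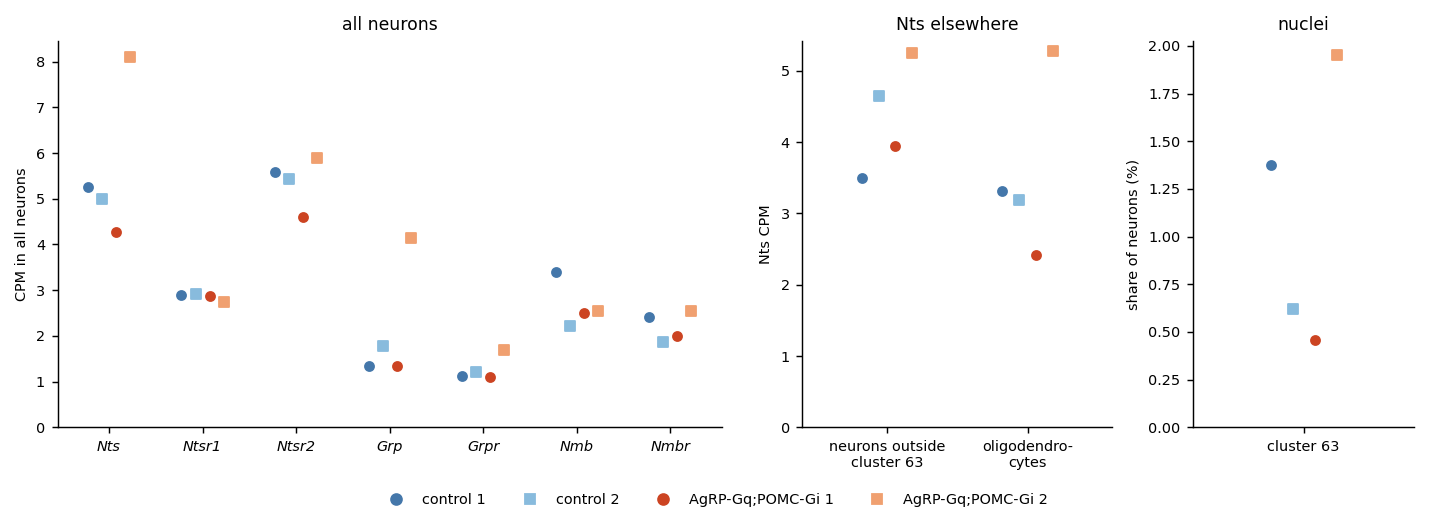
Left, CPM of each member in all neurons by library; middle, Nts CPM in neurons outside cluster 63 and in oligodendrocytes; right, share of neurons in cluster 63. AgRP-Gq;POMC-Gi replicate 2 (orange squares) is highest for Nts and Grp, while the 4 libraries of Ntsr1 lie between 2.75 and 2.92 CPM.

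In single neuronal clusters 118 pairs of member and cluster could be tested, and none passed (lowest adjusted p = 0.572 by edgeR), where 0.0387% of all pairs of gene and cluster did. DESeq2 passed none. An unadjusted p under 0.05 was found in 6 of the 118 pairs (5.08%), near the 4.51% of all pairs. The groups did not overlap in 40 of the 118 (33.9%), near the 33.6% of all pairs, with AgRP-Gq;POMC-Gi above in 24 and below in 16. The 6 pairs with an unadjusted p under 0.05, most of them with 5 or 6 UMIs, were *Grp* in cluster 174, *Nts* in cluster 152 (0, 0, 3 and 2 UMIs), *Grpr* in cluster 156 (0, 0, 2 and 4 UMIs) and *Ntsr2* in clusters 80, 132 and 157. *Nts* in cluster 152 and *Grpr* in cluster 156 met the detection minimum only through the AgRP-Gq;POMC-Gi libraries. The direction of these differences was therefore set by that minimum. On the log2 scale *Ntsr2* differed by 4.42 in cluster 132 and by -4.50 in cluster 157. This is a size like that of *Nts* in cluster 152 (4.63) and *Grpr* in cluster 156 (4.39). Whether the minimum also set the direction for *Ntsr2* in clusters 132 and 157 was not examined. *Ntsr2* in cluster 80, at 51.1, 14.1, 7.78 and 8.49 CPM, had the lowest adjusted p. *Grp* in cluster 174 differed by 1.58 ± 0.65 on the log2 scale (adjusted p = 0.991, edgeR), and this rests on AgRP-Gq;POMC-Gi replicate 2, without which it was -0.64. *Nts* in cluster 63 differed by 0.41 ± 0.33, *Nmbr* in cluster 53 by -0.65 ± 0.58, and *Ntsr2* in clusters 46 and 162 by 0.33 ± 0.38 and 0.11 ± 0.63 (adjusted p from 0.986 to 0.997 in edgeR). Outside neurons only *Ntsr2* reached the detection minimum, in 4 cell types, and none passed, where 0.164% of all genes of these types did. In astrocytes it differed by 0.12 ± 0.14 (adjusted p = 0.842, edgeR).

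**Figure D5:**
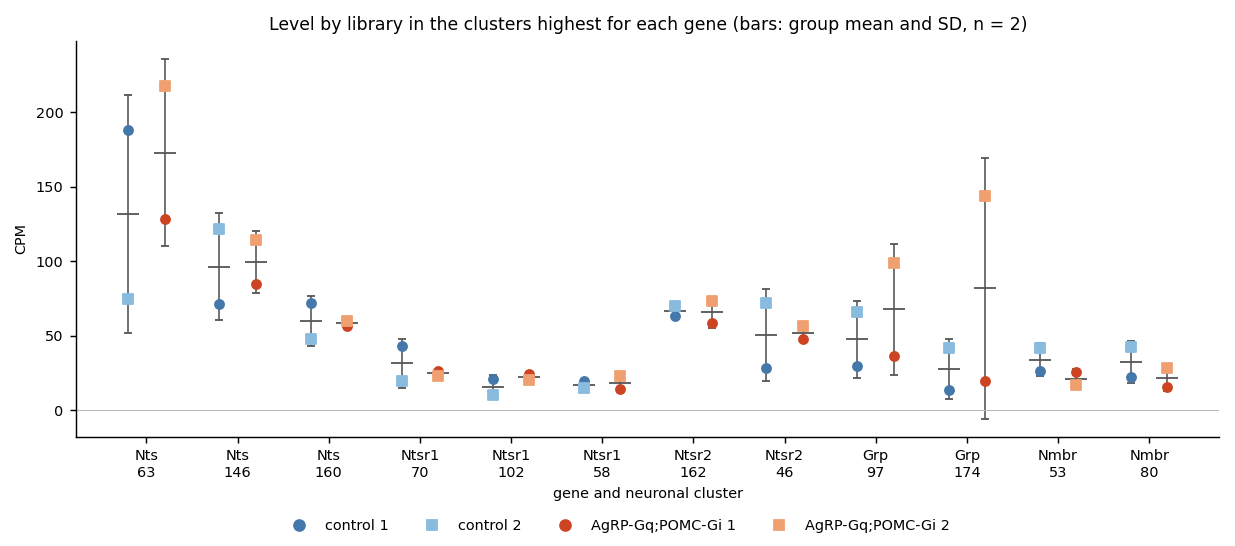
CPM by library in 12 pairs of gene and neuronal cluster, chosen after values were seen among the 35 pairs of a gene and its 5 highest clusters, with the mean and SD of each group of 2 libraries. The groups overlap in 11 of the 12 pairs shown and in 26 of the 35, with AgRP-Gq;POMC-Gi above in 4 and below in 5, and the AgRP-Gq;POMC-Gi libraries lie below the control libraries for Nmbr in cluster 53. Of all pairs of gene and neuronal cluster tested, 33.6% did not overlap. Grpr in clusters 135, 156 and 181, Nmb in cluster 153 and Nmbr in cluster 167 had no UMI in controls. They rank among the 5 highest through AgRP-Gq;POMC-Gi alone.

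Genes that make, cut or relay these peptides were much more widely detected. Of a list of 19, 16 reached the detection minimum in neurons, and none passed the test (lowest adjusted p = 0.810, edgeR). An unadjusted p under 0.05 was found for 2 of the 16, *Sort1* and *Plcb1*, where 5.51% of all genes tested had one, and the fitted difference was above 0 for 9 and below 0 for 7. The groups did not overlap for 8 of the 19, with AgRP-Gq;POMC-Gi above for 4 and below for 4, where 34.6% of all genes with a UMI did not overlap. Among the sorting receptors, *Sort1*, which also binds neurotensin, was at 80.1 and 75.9 CPM in controls against 60.6 and 71.5 CPM, while the groups overlapped for its relative *Sorl1* (lowest 87.1 and highest 98.6 CPM). *Brs3*, the orphan receptor of the bombesin family, had 1 UMI in all nuclei, and at this depth was not detectable as expressed. Among the processing enzymes, *Pcsk2*, which cuts the *Nts* precursor, was at 434 and 414 against 441 and 489 CPM. *Pam*, which amidates *Grp* and *Nmb* peptides, was at 273 and 259 against 291 and 290 CPM. *Scg5*, a chaperone of *Pcsk2*, was at 224 and 222 against 195 and 209 CPM. *Pcsk1* was at 30.6 and 32.3 against 29.1 and 50.7 CPM, with AgRP-Gq;POMC-Gi replicate 2 alone above the rest. The groups overlapped for the peptidases *Nln*, *Mme*, *Prep* and *Thop1*, for the carboxypeptidase *Cpe*, and in the signalling path for *Plcb3*, *Plcb4* and *Arrb2*. In the signalling path of Gq-coupled receptors, *Plcb1* was at 535 and 548 against 579 and 622 CPM and *Gnaq* at 295 and 302 against 303 and 304 CPM. *Gna11*, a close relative of *Gnaq*, was at 14.6 and 15.9 against 10.6 and 14.5 CPM, and *Arrb1*, an arrestin that desensitises receptors, at 71.0 and 70.6 against 63.5 and 69.5 CPM.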

How the data were processed

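Per the labels and the file headers, the authors sorted DRAQ5-stained nuclei, prepared 10x Genomics libraries, counted UMIs with Cell Ranger 7.0.0 on GRCm38 (mm10) and used Seurat 4.3.0. The deposited counts are raw UMI counts per gene and barcode, and the authors' table gives the kept nuclei, their cluster and their cell type, which were not computed again here. The authors ran a doublet caller, and none was run here. The matrix that joins the libraries was not used here.

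CPM came from the summed UMIs of each library in a cluster or cell type, over the total of those nuclei. Groups were compared with edgeR 4.0.16 (quasi-likelihood test, TMM factors, R 4.3.3) for genes detected in 5% or more of the nuclei, where each library had 5 nuclei or more, and p-values were adjusted by Benjamini-Hochberg within a cluster or type (threshold 0.05). The alternatives were DESeq2 1.42.0, library size without TMM factors, other filters, a block on replicate number, and leaving out libraries in turn. As the quasi-likelihood test gives no standard error, the SE was derived as the absolute log2 difference divided by the square root of the test's F statistic. Tests were tried on simulated data. Likeness was Pearson's r over 134 neuronal clusters among genes found in 1% of neurons or more. The 5 clusters with the highest mean CPM and the 3 likest genes are named for each member, and every test past the threshold would be, except that 1 cluster of *Grpr* is not reported here. Software was Python 3.11.15 (matplotlib 3.10.9, numpy 2.4.6, scipy 1.17.1, pandas 2.3.3). Promoters came from a RefSeq table, in which 6 of the 7 members had an entry. The members and lists were chosen with earlier results of these data known. Counts of nuclei with at least 3 UMIs, the comparison with *Aqp4* and tests of members in all neurons without the minimum under other settings were added after values were seen. Intervals cover counting error only.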

Additional observations from a re-analysis of the deposited data

Results flagged for a closer look

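Among the clusters highest for *Nmbr*, 2 were flagged because their groups did not overlap, and they went in opposite directions. Of the 35 pairs of a gene and its 5 highest clusters, AgRP-Gq;POMC-Gi was above in 4 and below in 5. In cluster 53 both AgRP-Gq;POMC-Gi libraries were below both control libraries (25.7 and 16.9 against 26.5 and 41.8 CPM, a log2 ratio of group means of -0.68). In cluster 142 both were above (27.7 and 42.2 against 16.6 and 0 CPM, a log2 ratio of 2.07). The values of cluster 142 rest on 10 UMIs in 6 nuclei, and the difference between the clusters was not tested. Its place among the highest clusters rests mainly on the AgRP-Gq;POMC-Gi libraries (group mean 34.9 CPM, against 8.32 CPM in controls). By edgeR the adjusted p was 0.994 in cluster 53 and 0.953 in cluster 142, and groups did not overlap in 33.6% of all pairs of gene and cluster.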

How the results depend on the processing

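No member passed the threshold in all neurons, in a neuronal cluster or in another cell type under any alternative run, though in all neurons members could be tested only without the detection minimum or with edgeR's own filter. With the replicate number as a block, 0 members passed. Libraries of equal number come from mice of different genotype, and nothing in the labels says that equal numbers mark a shared batch. Choroid plexus nuclei followed the number, with 2 and 6 in replicate 1 and 436 and 329 in replicate 2 of the control and AgRP-Gq;POMC-Gi groups. Same-numbered libraries deviated together over 12115 genes in neurons (r = 0.18), and under the block 168 genes passed where 0 did without it (10 by DESeq2). Without the detection minimum, *Grp* in all neurons had an unadjusted p of 0.00407 under the block (adjusted p = 0.210, edgeR). An unadjusted p under 0.05 was found there for 1889 of 27523 genes. Of the pathway genes, between 0 and 4 passed with a library left out. *Pcsk1* passed without AgRP-Gq;POMC-Gi replicate 1, where 25 of 12233 genes passed, and *Sort1*, *Plcb1*, *Pam* and *Gna11* without AgRP-Gq;POMC-Gi replicate 2, where 2044 of 12125 genes passed with the lone library assumed to vary like the others.

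The highest cluster stayed the same for 3 of 7 members by mean log-normalized value, for 2 by the share of nuclei with a UMI, for 4 by that share after thinning, for 3 with libraries added up and for 4 to 6 with a library left out. *Nts* and *Ntsr2* kept theirs under each of these. The highest cell type stayed the same for 4 to 5 members with a library left out. A minimum of 5% gave 12 pairs of gene and holding cluster, 20% gave 1, and 10% without thinning gave 36, against 5. Leaving out control replicates 1 and 2 and AgRP-Gq;POMC-Gi replicates 1 and 2 in turn gave 6, 4, 7 and 4 pairs.

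With a library left out, the log2 differences in all neurons without the detection minimum, alternatives chosen after seeing the data, ranged from -0.149 to 0.674 for *Nts*, -0.0697 to 0.0909 for *Ntsr1*, -0.144 to 0.110 for *Ntsr2*, -0.101 to 1.41 for *Grp*, -0.356 to 0.248 for *Nmb*, -0.0272 to 0.349 for *Nmbr* and 0.0306 to 0.562 for *Grpr*. *Nts* and *Grp* changed sign without AgRP-Gq;POMC-Gi replicate 2, *Ntsr1* and *Ntsr2* (0.110) without AgRP-Gq;POMC-Gi replicate 1, *Ntsr2* (0.0111) and *Nmb* without control replicate 1, and *Nmbr* without control replicate 2. *Ntsr1* was at -0.0514 without TMM factors. In clusters the ranges were -0.214 to 1.34 for *Nts* in 63, -0.325 to 1.32 for *Grp* in 97, -0.643 to 2.85 for *Grp* in 174 and -0.00580 to 0.231 for *Ntsr2* in 162, each lowest without AgRP-Gq;POMC-Gi replicate 2. They were -0.983 to -0.275 for *Nmbr* in 53, -0.413 to 0.904 for *Ntsr2* in 46, lowest without control replicate 1, and -0.837 to 0.0936 for *Nmbr* in 80, highest without control replicate 2. *Ntsr2* in 162 was at -0.00635 without TMM factors. With equal weight per cluster the log2 ratio of group means was 0.08 for *Ntsr1* (-0.05 otherwise), -0.38 for *Ntsr2* (-0.07), 0.09 for *Nmb* (-0.15), 0.22 for *Grp* (0.81), 0.29 for *Nmbr* (0.09), 0.13 for *Nts* (0.27) and 0.27 for *Grpr* (0.27). The cause was not tested.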
